A study of Mus musculus with 12 samples.

Results

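The 2-oxoglutarate dioxygenases other than TET were followed as 47 genes named by symbol: JmjC histone demethylases, JmjC-only oxygenases, HIF prolyl hydroxylases, collagen prolyl and lysyl hydroxylases, the ALKBH family with Fto, and 5 other oxygenases. All 47 symbols had a row among the 35976 gene symbols of the count table, and 45 of them were among the 16014 genes with enough counts to test. Kdm4d and P4ha3 were below that limit.

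These enzymes use iron, oxygen and 2-oxoglutarate to hydroxylate or demethylate their substrates, and the TET enzymes, which oxidise 5-methylcytosine in DNA, belong to the same superfamily. JmjC demethylases remove methyl groups from histone lysines. The EGLN enzymes hydroxylate the hypoxia-inducible factor HIF so that it is degraded when oxygen is present, and P4HA, P3H and PLOD enzymes modify collagen chains in the endoplasmic reticulum. ALKBH enzymes repair alkylated nucleic acids or remove methyl marks from RNA, a role shared by Fto.

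RNA was sequenced with paired ends from mouse V6.5 embryonic stem cells grown on gelatin in serum medium with LIF and the inhibitors CHIR99021 and PD0325901. Cells with the genotype Tet1KO Tet2 N1300T, carrying a TET2 change derived from leukaemia, are called N1300T here and came as 2 sets of 3 libraries numbered 49 and 81. Cells labelled Tet1 Tet2 DKO, numbered 41, gave 3 libraries, as did cells labelled Tet1 KO, so a knockout of Tet1 was common to every group by label. The study asked what the N1300T change does to transcription. No treatment was given, and no source at hand says what the numbers mean or whether a set is 1 clone.

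Libraries held 31515011 to 57054862 counts. N1300T levels are means over both sets (n = 6) unless a set is named, levels are in CPM, the counts scaled to library size with TMM factors, ± SD with n = 3 otherwise, and log2 fold changes carry their SE. Genes were called at an adjusted p under 0.05 (edgeR's quasi-likelihood test with Benjamini-Hochberg adjustment over all genes tested). Libraries of N1300T and Tet1KO with the same replicate letter deviated together, and a fit with the letter as a replicate block is given beside N1300T against Tet1KO and N1300T 49 against 81 where it changed a call. The labels do not say whether replicates came from separate cultures, and p-values then reflect only how these libraries vary, which may be technical. Tet2 averaged 94.5 ± 3.05 CPM in DKO and 160.4 ± 19.3 CPM in Tet1KO, a fall of 0.76 ± 0.09 on the log2 scale (adjusted p = 1.43e-05), and Tet1 transcripts were counted in every group without a call. Summed over 9 embryonic stem cell markers, libraries reached 6682 to 7171 CPM in N1300T, 6123 to 6630 CPM in DKO and 6843 to 6890 CPM in Tet1KO. Markers of fibroblasts, the feeder cell type, summed to 12.64 to 17.9 CPM in N1300T, 16.6 to 20.2 CPM in DKO and 13.0 to 14.8 CPM in Tet1KO over 10 genes. Endoderm markers summed to 510 to 643 CPM and trophoblast markers to 133 to 178 CPM over all libraries, and no marker stood at 0 in every library. In bulk RNA, fewer cells of a type and less RNA per cell cannot be told apart. The Tet1KO libraries stood apart on 3 chromosomes, with medians over genes of 0.06 to 0.16 above the mean of all libraries on chromosome 6, 0.04 to 0.11 above it on chromosome 8, and 0.03 to 0.11 below it on chromosome 11 (log2 scale), most in Tet1KO A.

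Nearly the whole family was transcribed in these cells. Divided by the length of all annotated exons, the Tet1KO means ran down from Kdm5b (31.8 ± 4.23 CPM per kb), a demethylase of H3K4, through Phyh (30.1 ± 4.03), a peroxisomal oxidase of phytanoyl-CoA, and Alkbh5 (29.6 ± 4.87), an m6A eraser, to Kdm3a (25.1 ± 2.54) and Egln2 (24.9 ± 0.87). Neighbours among these 5 lay within their SDs. At the lower end, P3h3 stood at 0.875 ± 0.0339 CPM per kb, P3h2 at 0.0546 ± 0.0396, Kdm4d at 0.0183 ± 0.0029 and P4ha3 at 0.0101 ± 0.00878. Kdm4d had 0 to 8 counts per library and P4ha3 0 to 10, so no difference in them was detectable at this depth. Exon length over all transcripts overstates the length of genes that use few of them, which shifts this order but no comparison between groups.

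**Figure D1:**
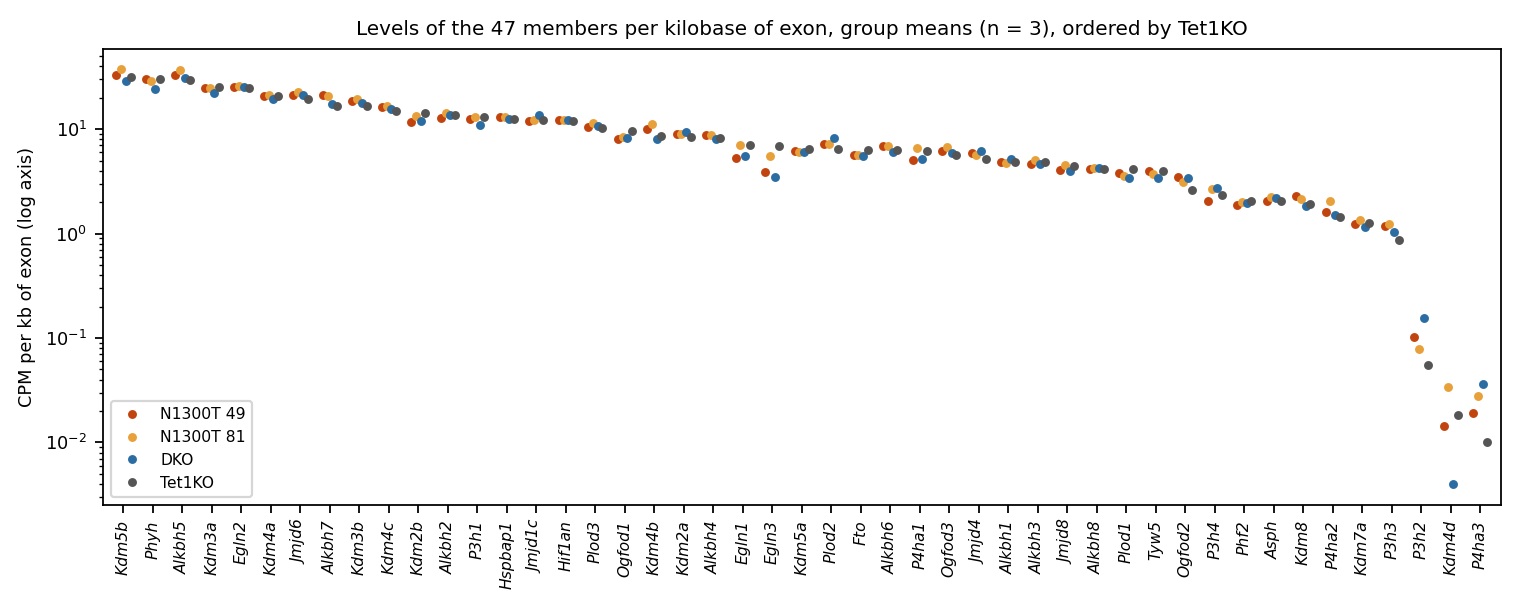
Mean level of each of the 47 genes in CPM per kb of exon on a log axis (points, n = 3 libraries per group), ordered by Tet1KO and coloured by group. From Kdm5b at 31.8 CPM per kb in Tet1KO the genes fall gradually to P3h3 at 0.875, and P3h2, Kdm4d and P4ha3 lie far below.

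Differences within the family were small. In N1300T against Tet1KO, 6 of 45 genes (13.3%) were called, beside 15.7% of all genes tested, and in DKO against Tet1KO 7 (15.6%), beside 15.0%. N1300T against DKO called 1 (2.22%), beside 3.73%, and N1300T 49 against N1300T 81 called 0, beside 0.362%. In that last comparison 4 of the genes reached an unadjusted p under 0.05, and DESeq2 also called 0. With the replicate block, N1300T against Tet1KO called 14 (31.1%), 9 higher and 5 lower and all 6 of the first fit among them, beside 20.8% of all genes, and N1300T 49 against 81 called 0, beside 0.656%. The block fitted without the DKO libraries, chosen after the data were seen, called 17 (37.8%), beside 24.3%, and 2 (4.44%), beside 1.28%. It added Kdm5b (0.15 ± 0.05), Jmjd4 (0.15 ± 0.05) and Egln1 (-0.20 ± 0.07) in N1300T against Tet1KO, and called Egln1 (-0.40 ± 0.08) and P4ha1 (-0.35 ± 0.08) lower in N1300T 49 than in N1300T 81. In N1300T against Tet1KO the libraries of the 2 sides did not overlap for 15.6% of the family, beside 16% of all genes tested. In DKO against Tet1KO this held for 40%, beside 35.4%, and in N1300T against DKO for 8.89%, beside 11%. Between N1300T 49 and 81 it held for 13.3%, beside 10.3%. These shares describe the family beside its background, and no test set them against each other. Median log2 fold changes were 0.03 for the family and 0.00 for all genes in N1300T against Tet1KO, -0.01 and -0.01 in DKO against Tet1KO, and 0.08 and 0.00 in N1300T against DKO. Both comparisons with Tet1KO rest on the same 3 Tet1KO libraries. Without Tet1KO A they called 2 and 3 of the genes, and without Tet1KO B or without DKO C the DKO comparison called 1, Plod2.

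**Figure D2:**
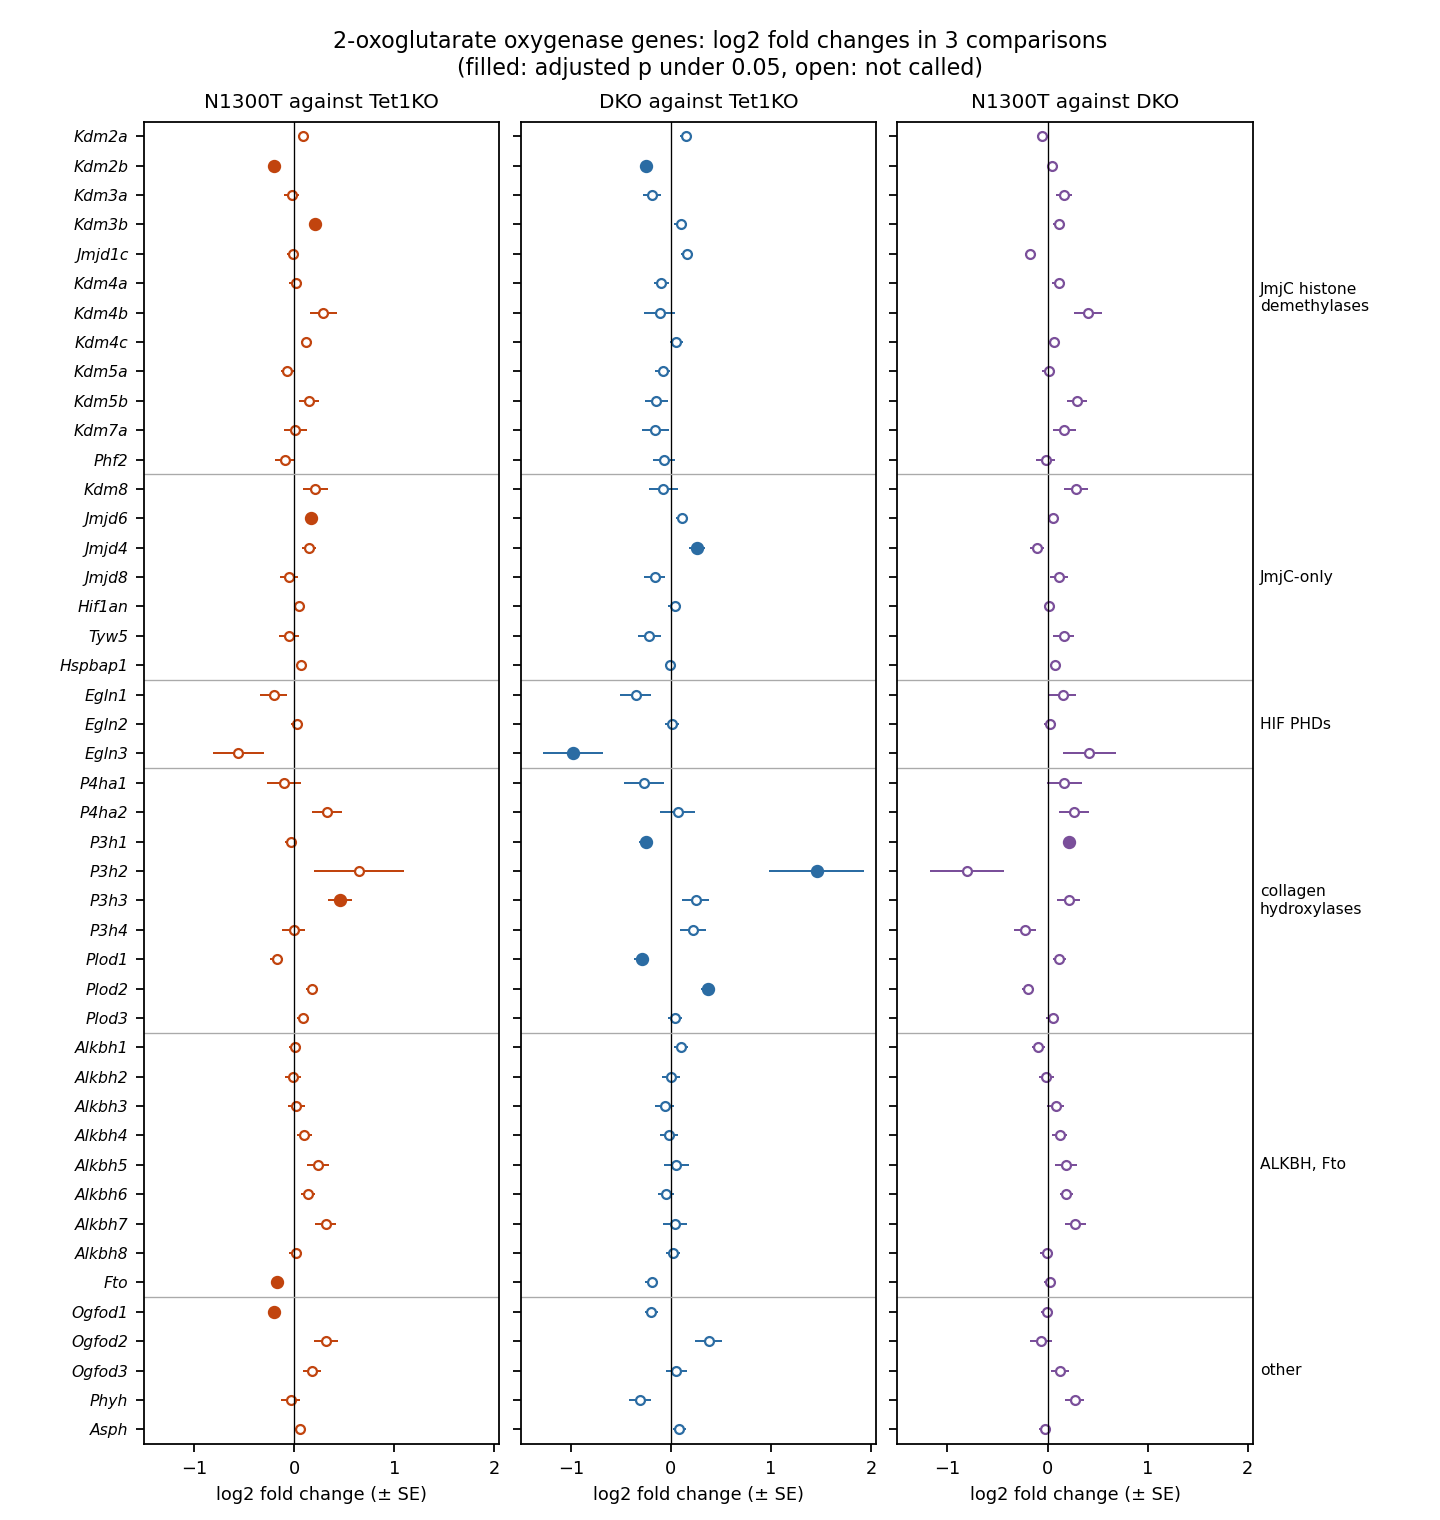
Log2 fold change ± SE of the 45 tested genes (rows, in 6 classes) in N1300T against Tet1KO, DKO against Tet1KO and N1300T against DKO, with filled points for an adjusted p under 0.05. In this fit without a replicate block, filled points number 6, 7 and 1, and apart from Egln3 and P3h2 all lie within 0.5 of 0.

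Among the histone demethylases, Kdm2b was lower than in Tet1KO in both other genotypes and Kdm3b was higher in N1300T. Kdm2b (chromosome 5, 122870665 to 122989823) encodes a demethylase that binds CpG islands and recruits a Polycomb complex. It had 114.6, 131.6 and 133.0 CPM in N1300T 49 and 144.3, 142.4 and 144.3 CPM in N1300T 81, against 149.6, 164.8 and 150.0 CPM in Tet1KO. In DKO it had 133.9, 132.8 and 125.3 CPM. All 9 N1300T and DKO libraries lay below the lowest Tet1KO library. N1300T 49 lay wholly below N1300T 81 without a call (adjusted p = 0.488). Kdm2b fell by 0.20 ± 0.05 in N1300T (adjusted p = 0.018) and by 0.24 ± 0.06 in DKO (adjusted p = 0.0147), both against Tet1KO. With N1300T 81 alone the difference was -0.11 and not called, and without Tet1KO B neither was called. Part of its exons overlaps Rnf34 on the other strand, whose change of -0.06 ± 0.05 in N1300T and -0.04 ± 0.06 in DKO was not called, and the use of strand in counting is not stated.

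Kdm3b (chromosome 18, 34777047 to 34838660), an H3K9 demethylase, had 251.7, 287.7 and 251.3 CPM in N1300T 49 and 283.7, 281.5 and 258.3 CPM in N1300T 81, against 238.2, 242.2 and 217.7 CPM in Tet1KO. The groups did not overlap, and Kdm3b rose by 0.21 ± 0.06 (adjusted p = 0.0173). The call was lost without Tet1KO C or with N1300T 49 alone. In DKO, with 250.5, 242.2 and 255.4 CPM, it was 0.10 ± 0.06 above Tet1KO without a call, its lowest library level with Tet1KO B. An opposite-strand transcript, Gm26538, shares 3468 bases of its exons.

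With the main settings (filtered counts, TMM factors, no block), none of the other 10 tested demethylases was called in any comparison. Among alternatives, DESeq2 called Jmjd1c in DKO against Tet1KO and in N1300T against DKO. With no filter on low counts Kdm3a, Kdm4b, Kdm5b and Jmjd1c each had a call in at least 1 comparison, as did Kdm2a with library size alone. With the replicate block Kdm4b rose in N1300T against Tet1KO (0.30 ± 0.08, adjusted p = 0.00935). Kdm5b ranged over group means of 476 to 619 CPM, the H3K9 demethylases Kdm3a over 180.5 to 206 CPM and Jmjd1c over 212 to 242 CPM, and Kdm2a, a demethylase of H3K36, over 122 to 136 CPM. The H3K9 and H3K36 demethylases Kdm4a, Kdm4b and Kdm4c spanned 112 to 122, 39.2 to 55.1 and 87.4 to 95.9 CPM. Kdm5a, which acts on H3K4, spanned 85.6 to 90.9 CPM, Kdm7a 11.5 to 13.4 CPM and Phf2 10.3 to 11.3 CPM. Their log2 fold changes lay between -0.19 (Kdm3a, DKO against Tet1KO) and 0.40 (Kdm4b, N1300T against DKO, adjusted p = 0.107). Kdm3a lies on chromosome 6, whose median was -0.16 in DKO against Tet1KO. Of 19 lysine methyltransferases of H3K4, H3K9 and H3K36, which write the marks these enzymes erase, N1300T against Tet1KO called 1 higher and 2 lower. Of all genes tested, 15.7% were called there. Nsd3 fell by 0.29 ± 0.07 to 29.2 ± 1.52 CPM in N1300T, against 35.6 ± 2.37 CPM in Tet1KO, and Nsd2 fell by 0.28 ± 0.07, while Ehmt2, an H3K9 methyltransferase, rose by 0.18 ± 0.05. Without Tet1KO A, 1 of them was called. The replicate block also called Kmt2d higher in N1300T against Tet1KO (0.17 ± 0.06, adjusted p = 0.0467). In DKO against Tet1KO edgeR and DESeq2 both called 0 of the 19, and 4 reached an unadjusted p under 0.05.

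Of the 7 JmjC-only oxygenases, 1 was called in each comparison with Tet1KO, beside 15.7% of all genes in N1300T and 15.0% in DKO. Jmjd6 (chromosome 11, 116837432 to 116843449), a lysyl hydroxylase of splicing factors, had 96.5, 100.2 and 104.9 CPM in N1300T 49 and 108.0, 109.2 and 101.7 CPM in N1300T 81, against 84.2, 97.1 and 95.04 CPM in Tet1KO. N1300T 49 A lay below Tet1KO B, so the groups overlapped, and the rise was 0.17 ± 0.05 (adjusted p = 0.0492). Jmjd4 (chromosome 11, 59450045 to 59458567), which in human cells hydroxylates the translation termination factor eRF1, had 44.2, 43.4 and 44.3 CPM in DKO, against 35.4, 34.2 and 40.7 CPM in Tet1KO. Every DKO library was above every Tet1KO library, and Jmjd4 rose by 0.26 ± 0.08 (adjusted p = 0.0363).

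Both genes lie on chromosome 11, where the median gene was higher by 0.10 in N1300T and by 0.07 in DKO against Tet1KO. With each chromosome's median removed from every library, neither was called, at 0.08 for Jmjd6 and 0.18 for Jmjd4. The call of Jmjd6 was lost under 16 of 24 alternative settings and that of Jmjd4 without any 1 DKO library or without Tet1KO A or B. Their opposite-strand neighbours with shared exons, Mettl23 for Jmjd6 and Snap47 for Jmjd4, were not called in any comparison. The others were not called in any of these fits: Hif1an, the asparaginyl hydroxylase of HIF, stood at 78.3 to 81.4 CPM over the group means, Hspbap1 at 117 to 123, Jmjd8 at 10.9 to 12.4, Tyw5, a hydroxylase of a tRNA base, at 9.604 to 11.1, and Kdm8 at 4.34 to 5.49 CPM. Log2 fold changes of these 5 lay between -0.21 (Tyw5, DKO against Tet1KO) and 0.29 (Kdm8, N1300T against DKO).

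Of the 3 HIF prolyl hydroxylases, Egln3 was called lower in DKO than in Tet1KO. Egln2, the most highly expressed per kb, stayed between 69.9 and 71.6 CPM over the group means, with log2 fold changes of -0.01 to 0.03. Egln3 (chromosome 12, 54178981 to 54203860), itself a gene that HIF induces, had 10.1, 8.35 and 9.44 CPM in DKO, against 19.8, 24.6 and 10.6 CPM in Tet1KO. It had 7.86, 14.2 and 9.27 CPM in N1300T 49 and 12.3, 22.9 and 9.28 CPM in N1300T 81. DKO was uniformly low and lay just below Tet1KO C, whereas Tet1KO and N1300T each held low and high libraries. Egln3 fell in DKO by 0.98 ± 0.30 against Tet1KO (adjusted p = 0.036), and its difference of -0.56 ± 0.25 in N1300T was not called (adjusted p = 0.151). With the replicate block the N1300T difference was -0.56 ± 0.17 and called (adjusted p = 0.0199). The DKO call was lost with DESeq2 (adjusted p = 0.084), without any 1 DKO library, and without Tet1KO A or B, where the difference was -0.92 and -0.70. Egln1, the main HIF hydroxylase in normal oxygen, had 20.3, 18.8 and 20.1 CPM in DKO, against 22.6, 30.7 and 22.1 CPM in Tet1KO. These groups did not overlap, and the difference was not called with the main settings (-0.35 ± 0.16, adjusted p = 0.142). Egln1 lies on chromosome 8, whose median was -0.12 in N1300T and -0.10 in DKO, both against Tet1KO.

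Egln3 had the highest variation within groups of all tested members (SD 0.50 on the log2 CPM scale), followed by P4ha1 (0.33), Kdm4b (0.26), P4ha2 (0.26) and Egln1 (0.24). HIF targets varied over the same libraries. The mean of 19 of them, none a member, was 5.64, 5.84 and 5.55 log2 CPM in N1300T 49, 5.81, 6.23 and 5.55 in N1300T 81, 5.56, 5.58 and 5.55 in DKO and 5.84, 6.01 and 5.49 in Tet1KO. In each of N1300T 49, N1300T 81 and Tet1KO the B library had the highest mean of HIF targets, and C the lowest. B also had the highest Egln3, Egln1, P4ha1, P4ha2, Kdm4b and Kdm5b there. Kdm3a did not follow, with A above B in N1300T 81 (215.3 and 209.4 CPM) and in Tet1KO (228.4 and 202.7 CPM). DKO showed no such spread of HIF targets or of these genes. The part of this variation in the Egln3 difference was not tested. In DKO against Tet1KO, 5 of the 19 HIF targets were called lower and 0 higher, beside 15.0% of all genes called. The list median was -0.33, beside -0.01 for all genes. The 5 called were Hk2, a hexokinase (-0.33 ± 0.08), Higd1a (-0.40 ± 0.10), Vegfa, the vascular growth factor (-1.17 ± 0.31), and the glucose transporters Slc2a3 and Slc2a1. Vegfa averaged 5.96 ± 0.28 CPM in DKO and 13.4 ± 5.08 CPM in Tet1KO. Without Tet1KO A the count was 1, without Tet1KO B or DKO C 2, without DKO A 3 and without Tet1KO C 8. In N1300T against Tet1KO Hk2 was called lower (-0.23 ± 0.07), and no target was called without Tet1KO A or B. With the replicate block 3 were called lower there, Hk2, Slc2a3 (-0.19 ± 0.06) and Slc2a1 (-0.21 ± 0.07), and the block without DKO libraries called 4 lower and 3 higher. The block also called Vegfa lower in N1300T 49 than in N1300T 81 (-0.69 ± 0.16, adjusted p = 0.0447). Of 12 HIF pathway factors, 3 fell in DKO against Tet1KO, where 15.0% of all genes were called. They were Eloc (-0.31 ± 0.08), Cul2 (-0.23 ± 0.07) and Vhl (-0.24 ± 0.08), parts of the ligase that recognises hydroxylated HIF. Elob and Rbx1, also parts of it, were not called there. The count of factors was 0 without Tet1KO A or DKO C. In N1300T against Tet1KO edgeR and DESeq2 both called 0 of the factors, with 2 at an unadjusted p under 0.05. In N1300T against DKO the factor Elob (0.24 ± 0.06) and the target Higd1a (0.37 ± 0.09) were called higher.

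**Figure D3:**
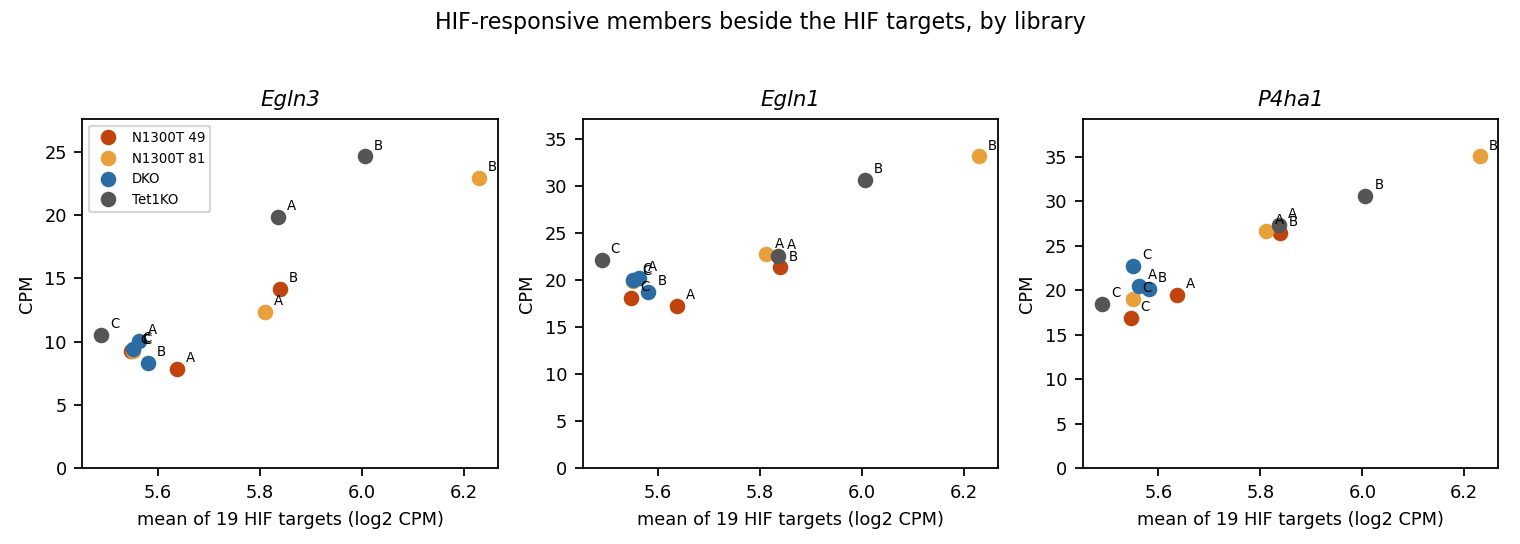
Egln3, Egln1 and P4ha1 in CPM (vertical axes) against the mean log2 CPM of 19 HIF targets (horizontal axes), 1 point per library coloured by group and lettered by replicate. N1300T 81 B and Tet1KO B lie at the upper right of all 3 panels, and the 3 DKO libraries lie together at the lower left.

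Promoter sequence was available for 38 of the 47 genes, in 49 windows from RefSeq (GRCm38.p6, 250 bases before and 50 after the annotated start). HIF binds the core letters ACGTG or GCGTG, so windows are shown for the called genes with the lowest adjusted p that have one and may be shown, and for Egln3, chosen after its values were seen. Where a gene has several windows, the one with the lowest start is given. Capitals mark ACGTG or GCGTG read on either strand, so that CACGT and CACGC are the same letters on the other strand, and CACGTG would count on both.
Kdm2b, chr5:122900301-122900600, minus strand: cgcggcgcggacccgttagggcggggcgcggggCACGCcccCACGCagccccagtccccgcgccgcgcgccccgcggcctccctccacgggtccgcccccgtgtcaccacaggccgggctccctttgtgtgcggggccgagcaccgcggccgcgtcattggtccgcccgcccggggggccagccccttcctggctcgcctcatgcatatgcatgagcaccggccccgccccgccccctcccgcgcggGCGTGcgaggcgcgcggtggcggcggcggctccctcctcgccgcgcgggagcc
P3h1, chr4:119232665-119232964, plus strand: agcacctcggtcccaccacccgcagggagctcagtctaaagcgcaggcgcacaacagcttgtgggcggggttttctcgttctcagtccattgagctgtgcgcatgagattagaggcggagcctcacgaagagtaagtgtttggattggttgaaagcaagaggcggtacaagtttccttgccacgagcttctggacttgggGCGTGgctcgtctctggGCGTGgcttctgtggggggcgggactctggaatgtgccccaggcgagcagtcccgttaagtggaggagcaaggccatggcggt
P3h3, chr6:124857668-124857967, minus strand: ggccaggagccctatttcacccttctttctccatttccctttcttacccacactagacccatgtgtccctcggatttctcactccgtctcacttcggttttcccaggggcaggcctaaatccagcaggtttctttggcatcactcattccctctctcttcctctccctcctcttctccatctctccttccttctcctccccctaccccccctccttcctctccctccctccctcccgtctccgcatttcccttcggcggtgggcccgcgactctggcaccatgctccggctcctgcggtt
Plod1, chr4:147936727-147937026, minus strand: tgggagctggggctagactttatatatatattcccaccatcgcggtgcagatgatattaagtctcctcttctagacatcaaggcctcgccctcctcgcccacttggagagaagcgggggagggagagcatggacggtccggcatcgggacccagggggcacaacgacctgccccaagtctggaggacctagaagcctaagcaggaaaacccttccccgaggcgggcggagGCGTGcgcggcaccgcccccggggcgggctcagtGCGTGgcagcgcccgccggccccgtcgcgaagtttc
Ogfod1, chr8:94036948-94037247, plus strand: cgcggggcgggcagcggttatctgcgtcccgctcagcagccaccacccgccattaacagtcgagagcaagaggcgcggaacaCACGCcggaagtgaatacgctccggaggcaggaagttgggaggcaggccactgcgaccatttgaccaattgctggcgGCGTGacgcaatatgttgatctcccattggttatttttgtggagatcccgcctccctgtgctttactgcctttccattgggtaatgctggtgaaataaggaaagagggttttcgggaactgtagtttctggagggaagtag
Egln3, chr12:54203825-54204124, minus strand: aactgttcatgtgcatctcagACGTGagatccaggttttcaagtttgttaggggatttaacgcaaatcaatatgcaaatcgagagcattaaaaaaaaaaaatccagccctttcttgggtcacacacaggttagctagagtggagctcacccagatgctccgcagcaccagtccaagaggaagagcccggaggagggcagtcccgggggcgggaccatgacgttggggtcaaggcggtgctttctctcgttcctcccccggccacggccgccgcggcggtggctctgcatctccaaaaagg
Egln3 holds 1 match in this window, Kdm2b 3, P3h1, Plod1 and Ogfod1 2 each, and P3h3 0. The Kdm2b window shown lies inside the gene, which is on the minus strand. Kdm2b windows nearer the upstream end of the gene, with starts at 122988458 and 122989050, hold 1 match each. Of the family's windows 30 of 49 (61.2%) hold a match, beside 43.8% of all 32851 windows, and their median number of CpG pairs was 19, beside 7. Matching letters describe the sequence and do not show binding, and both motifs contain a CpG.

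Of the 9 collagen hydroxylases tested, 4 were called in DKO against Tet1KO, beside 15.0% of all genes. The class is small, and its share was not tested against that of all genes. Plod2 and P3h2 were higher and Plod1 and P3h1 were lower. Plod2 (chromosome 9, 92542223 to 92608428), the lysyl hydroxylase of collagen telopeptides, had 44.9, 41.8 and 47.2 CPM in DKO, against 35.4, 34.8 and 33.3 CPM in Tet1KO. Every DKO library lay well above the Tet1KO libraries, and Plod2 rose by 0.37 ± 0.07 (adjusted p = 0.00155), a call kept under all 21 alternative settings. The N1300T mean of 39.1 ± 1.96 CPM lay between them, with 39.8, 39.5 and 37.6 CPM in set 49 and 37.8, 42.5 and 37.3 CPM in set 81, and differed from Tet1KO by 0.18 ± 0.06 (adjusted p = 0.0537) and from DKO by -0.19 ± 0.06 (adjusted p = 0.0813). With the replicate block the difference from Tet1KO was called (0.18 ± 0.06, adjusted p = 0.0423).

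Plod1 (chromosome 4, 147909753 to 147936767), which hydroxylates lysines in the collagen helix, had 23.2, 23.2 and 22.6 CPM in DKO, against 29.5, 29.5 and 25.5 CPM in Tet1KO. The groups did not overlap, and Plod1 fell by 0.29 ± 0.08 (adjusted p = 0.0169). With the replicate block it was also called lower in N1300T than in Tet1KO (-0.17 ± 0.06, adjusted p = 0.0485). P3h1 (chromosome 4, 119232915 to 119248975), a prolyl 3-hydroxylase that works in a complex with Crtap, had 43.2, 43.1 and 40.8 CPM in DKO, against 49.6, 52.4 and 48.9 CPM in Tet1KO. In N1300T it had 45.5, 50.9 and 48.3 CPM in set 49 and 50.9, 52.5 and 46.8 CPM in set 81. DKO was below every library of both other genotypes. P3h1 fell in DKO by 0.25 ± 0.07 against Tet1KO (adjusted p = 0.0167), and was 0.21 ± 0.06 higher in N1300T than in DKO (adjusted p = 0.0481), the 1 call of that comparison. The N1300T against DKO call was lost under 12 of 23 settings, among them a fit of only the libraries compared and each N1300T set alone. Against Tet1KO, the calls of both Plod1 and P3h1 were lost without DKO A, DKO C or Tet1KO B, and that of Plod1 also without Tet1KO A.

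P3h2 (chromosome 16, 25959288 to 26105784), the prolyl 3-hydroxylase of basement membrane collagen, was near the limit of detection, with 22, 24 and 45 counts in DKO, against 2, 8 and 15 counts in Tet1KO. This gave 0.378, 0.584 and 0.789 CPM in DKO, just above Tet1KO at 0.062, 0.191 and 0.356 CPM, and a rise of 1.46 ± 0.47 (adjusted p = 0.0462) that was lost under 10 of 19 settings. P3h3 (chromosome 6, 124841089 to 124857752), which takes part in collagen lysine hydroxylation in mice, had 4.46, 5.36 and 4.05 CPM in N1300T 49 and 5.07, 5.01 and 4.40 CPM in N1300T 81, against 3.29, 3.49 and 3.54 CPM in Tet1KO. All N1300T libraries were higher, by 0.46 ± 0.12 (adjusted p = 0.0142), while DKO, at 4.16, 4.23 and 3.88 CPM, was also above Tet1KO without a call (0.25 ± 0.14, adjusted p = 0.243). The rise was opposite in sign to the median of chromosome 6, which was -0.14 in N1300T against Tet1KO, and its call was lost without Tet1KO A or with N1300T 49 alone.

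**Figure D4:**
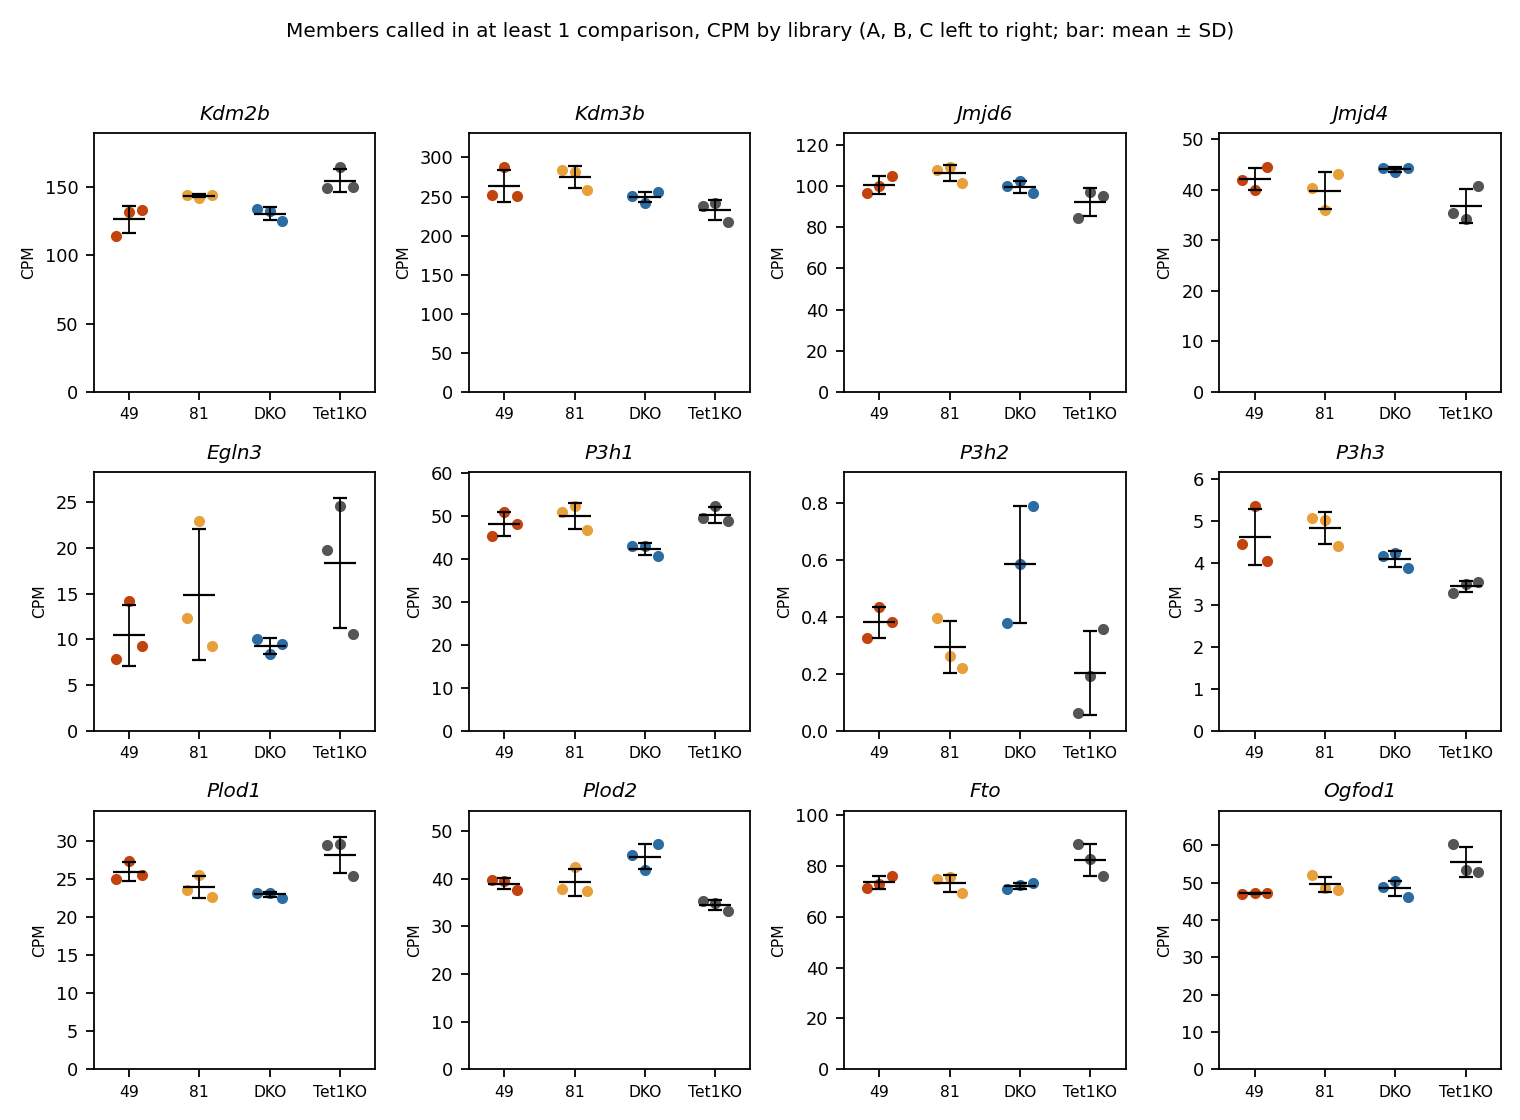
CPM by library (points, A to C) with mean ± SD (bars, n = 3), on axes that start at 0. The 12 genes are those called in at least 1 comparison with the main settings, without a replicate block. Groups are N1300T 49, N1300T 81, DKO and Tet1KO. Plod2 is highest in DKO and lowest in Tet1KO without overlap between the 2, and Egln3 spreads from 10.6 to 24.6 CPM within Tet1KO.

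The other collagen hydroxylases were not called with the main settings. With no filter on low counts P4ha1 and P4ha2 each had a call in at least 1 comparison. With the replicate block P4ha2 rose in N1300T against Tet1KO (0.33 ± 0.10, adjusted p = 0.0267). P4ha2 lies on chromosome 11, whose median was 0.10 in that comparison. The prolyl 4-hydroxylase subunits P4ha1 and P4ha2 ranged over 21.0 to 26.9 CPM and 9.01 to 12.9 CPM by group mean, Plod3 over 46.6 to 51.8 CPM, and P3h4, a relative of the P3H enzymes, over 4.50 to 5.94 CPM. Their log2 fold changes lay between -0.38 (P4ha2, N1300T 49 against 81) and 0.33 (P4ha2, N1300T against Tet1KO). Of 17 tested collagen chains and partners of these enzymes, 6 were called higher and 0 lower in DKO against Tet1KO. The list median was 0.11, and 15.0% of all genes were called there. Col18a1, a basement membrane collagen, rose by 0.56 ± 0.11 to 353 ± 12.4 CPM in DKO, against 238 ± 30.4 CPM in Tet1KO, Crtap by 0.22 ± 0.05, and Col4a5 by 1.74 ± 0.46 at under 1 CPM. The count ranged from 2 without DKO B to 7 without N1300T 81 C. In N1300T against Tet1KO 3 were called higher, beside 15.7% of all genes called, and 1 without Tet1KO A. The 3 were Crtap (0.23 ± 0.05), Col5a1 (0.31 ± 0.09) and Col4a6, which averaged 0.219 CPM in N1300T and 0.0158 CPM in Tet1KO. The replicate block added Col18a1 (0.21 ± 0.06) as higher and Fkbp10, a collagen chaperone, as lower (-0.34 ± 0.09) there. In N1300T against DKO, Col18a1 fell by 0.35 ± 0.09 and Fkbp10 by 0.42 ± 0.11. The summed fibroblast markers, which include Col1a1, were also higher in DKO (16.6 to 20.2 CPM) than in Tet1KO (13.0 to 14.8 CPM), with 2 of 6 tested called higher. Summed trophoblast markers were higher as well (171 to 178 CPM in DKO and 146 to 152 CPM in Tet1KO), with 4 of 8 called. Their largest rises in CPM were in Krt8 (45.8 in Tet1KO and 64.0 in DKO) and Krt18 (20.9 and 28.7). Both lists were mixed. Eomes, Tfap2c, Krt7 and Elf5 had lower means in DKO than in Tet1KO. So did the fibroblast markers Pdgfrb, Col1a2, Postn, Lum and Dcn. Summed endoderm markers, which include Col4a1, overlapped (595 to 622 CPM in DKO and 555 to 634 CPM in Tet1KO), with 2 of 10 called higher. Summed embryonic stem cell markers were lower in DKO (6123 to 6630 CPM) than in Tet1KO (6843 to 6890 CPM), with 1 of 9 called lower. These counts of markers stand beside 15.0% of all genes called. The part of these marker lists in the collagen gene differences was not tested.

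Of the nucleic acid demethylases, Fto was called. Fto (chromosome 8, 91313525 to 91668439), an eraser of m6A and cap-adjacent methyl marks, had 71.4, 72.8 and 76.2 CPM in N1300T 49 and 74.8, 75.5 and 69.3 CPM in N1300T 81, against 88.5, 82.8 and 75.9 CPM in Tet1KO. N1300T 49 C reached the level of Tet1KO C, so the groups overlapped, and Fto fell by 0.17 ± 0.05 (adjusted p = 0.0461). The call was lost under 14 of 24 alternative settings, among them each N1300T set alone and a fit of only the libraries compared. In DKO, at 70.8, 72.5 and 73.1 CPM, the difference was -0.19 ± 0.06 (adjusted p = 0.0508). Alkbh5, the other m6A eraser, was not called with the main settings, with group means of 177 to 222 CPM. Its log2 fold changes were 0.24 ± 0.11 in N1300T and 0.05 ± 0.13 in DKO against Tet1KO. With no filter on low counts it was called in N1300T against Tet1KO and against DKO. With the replicate block Alkbh5 was called higher in N1300T (0.24 ± 0.06, adjusted p = 0.00521), as was Alkbh7 (0.32 ± 0.10, adjusted p = 0.0275). Alkbh5 lies on chromosome 11, whose median was 0.10 in N1300T and 0.07 in DKO, both against Tet1KO. The DNA repair enzymes Alkbh2 and Alkbh3 ranged over 14.1 to 16.1 and 14.5 to 16.0 CPM, and Alkbh8, which modifies tRNA wobble bases, over 36.5 to 37.1 CPM. Alkbh1 spanned 31.4 to 33.8, Alkbh4 17.2 to 18.7, Alkbh6 18.9 to 21.6 and the mitochondrial Alkbh7 17.2 to 21.7 CPM. Log2 fold changes of these 8 lay between -0.19 (Alkbh2, N1300T 49 against 81) and 0.31 (Alkbh7, N1300T against Tet1KO, adjusted p = 0.0541). Among 14 writers and readers of m6A, Rbm15b, a writer subunit, rose by 0.23 ± 0.06 and Ythdc2, a reader helicase, fell by 0.30 ± 0.09 in N1300T against Tet1KO. Ythdf3, a cytoplasmic reader, rose by 0.21 ± 0.07 in DKO against Tet1KO. None of these 3 was called without Tet1KO A. Of all genes tested, 15.7% were called in N1300T and 15.0% in DKO, both against Tet1KO.

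Among the other oxygenases, Ogfod1 was lower in N1300T. Ogfod1 (chromosome 8, 94037198 to 94067921), the prolyl hydroxylase of a small ribosomal subunit protein, had 47.1, 47.2 and 47.2 CPM in N1300T 49 and 52.0, 48.6 and 48.1 CPM in N1300T 81, against 60.3, 53.5 and 52.9 CPM in Tet1KO. The groups did not overlap, with Tet1KO A highest, and Ogfod1 fell by 0.20 ± 0.06 (adjusted p = 0.0216). DKO, at 48.9, 50.4 and 46.3 CPM, differed from Tet1KO by -0.20 ± 0.07 (adjusted p = 0.0523). Fto and Ogfod1 both lie on chromosome 8, whose median gene was 0.12 lower in N1300T and 0.10 lower in DKO than in Tet1KO. With chromosome medians removed neither was called, at -0.07 for Fto and -0.10 for Ogfod1, and neither was called without Tet1KO A. Phyh, not called with the main settings, averaged 46.1 ± 1.94 CPM in DKO and 57.06 ± 7.64 CPM in Tet1KO (-0.31 ± 0.11, adjusted p = 0.0679). Ogfod2 ranged over 5.92 to 7.83 CPM, Ogfod3 over 7.38 to 8.73 CPM and Asph, an aspartyl hydroxylase, over 33.2 to 35.8 CPM, with log2 fold changes between -0.12 (Ogfod3, N1300T 49 against 81) and 0.38 (Ogfod2, DKO against Tet1KO). With the replicate block Ogfod2 was called higher in N1300T than in Tet1KO (0.31 ± 0.11, adjusted p = 0.0491). Outside the 47 genes, 13 further 2-oxoglutarate oxygenases or JmjC genes were tested, beside the same 15.7% and 15.0% of all genes called against Tet1KO. Hpdl, a relative of a 2-oxo acid dioxygenase, fell by 0.46 ± 0.09 in N1300T and by 0.37 ± 0.11 in DKO against Tet1KO, and Kdm5c, an H3K4 demethylase, rose by 0.14 ± 0.04 in N1300T, the others having no call in either. The replicate block also called Kdm6b, an H3K27 demethylase, higher (0.26 ± 0.07) and Phyhd1 lower (-0.49 ± 0.17) in N1300T.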

How the data were processed

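The authors deposited 1 table of read counts per gene symbol, not normalized, with a column for each of the 12 libraries. Per the submitters' processing notes, reads were placed on mm10 and DESeq2 was among the tools. How reads were aligned and counted, with which annotation and with or without strand, was not given in the sources used here. Among low values of the deposited counts, even numbers outnumber odd ones (20282 values of 2 beside 5990 of 1), so counting error may be understated, and a fit of halved counts was tried. The 47 genes and the gene lists were chosen with earlier results of these data known.

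Every comparison is a contrast of a single model of the 12 libraries in edgeR 4.0.16 (limma 3.58.1, R 4.3.3) with TMM factors (0.979 to 1.02), filterByExpr (minimum count 10), a quasi-likelihood fit and 2-sided tests adjusted over 16014 genes, which held 99.97% of counts. N1300T is the mean of sets 49 and 81 with equal weight, so its error comes from libraries and not from the 2 sets. A table of log2 CPM used a pseudocount of 0.5 for spreads and means of HIF targets. The fit was tested on simulated data. Named genes were all members called in any comparison, and up to 3 called genes of each list and comparison by adjusted p. Slc2a3 and Slc2a1 lie outside that rule and were named after their values were seen. Exon lengths, positions and overlaps came from GENCODE vM21 (GRCm38, the assembly named mm10), and 93.9% of tested symbols had a chromosome. Over highly counted genes, replicates differed with a chi-square of 6.7 to 51.0 per degree of freedom, so no 2 libraries were the same. The titles give each group the replicate letters A, B and C, and no label says that a letter marks a shared culture or day. After group means were removed, every same-letter pair of libraries correlated above 0.1 in N1300T against Tet1KO (0.19 to 0.60 over 9 pairs) and in N1300T 49 against 81 (0.19 to 0.48 over 3 pairs), so the letters were taken to pair these libraries. In DKO against Tet1KO 0 of 3 pairs did (-0.06 to 0.07) and in N1300T against DKO 4 of 9 (-0.14 to 0.48). They were not taken as pairs there. Pairs with different letters ran from -0.51 to 0.24 over all groups, with 4 of 36 above 0.1. Their highest values thus overlapped the lowest same-letter ones in the comparisons taken as paired. Alternatives were other scalings, filters, DESeq2 1.42.0, a replicate block, single N1300T sets and leaving out each library.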

Additional observations from a re-analysis of the deposited data

Results flagged for a closer look

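In the 6 N1300T libraries, 1 library stood apart from the other 5 for 5 of 45 genes tested, by a gap that takes up most of the group's range (Dixon's test at the 95% level, which flags about 1 group in 20 by chance). Tyw5 reached 13.5 CPM in N1300T 49 A, with the nearest library at 11.1 CPM. Egln1 reached 33.2 CPM in N1300T 81 B, with the nearest at 22.8 CPM, and P4ha2 reached 16.96 CPM in the same library, with the nearest at 11.5 CPM. This library also had the highest mean of HIF targets, 6.23 log2 CPM. Alkbh7 was lowest in N1300T 81 A at 19.01 CPM, with the nearest at 21.3 CPM, and Ogfod1 was highest there at 51.96 CPM, with the nearest at 48.6 CPM. With the main settings, without a replicate block, the 5 genes were not called between N1300T 49 and N1300T 81. With no filter on low counts Egln1 was called there.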

How the results depend on the processing

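The 14 calls of members, of 12 genes, were recomputed under up to 24 other settings, giving 312 values, of which 230 kept the call, 82 lost it and 0 changed sign. Calls of members in N1300T against Tet1KO numbered 6, and 2 and 3 with N1300T 49 or 81 alone and 2 to 8 without 1 library (all genes 1388 to 2575, the lowest without Tet1KO A). In DKO against Tet1KO they numbered 7, and 12 with no filter on low counts, 11 with DESeq2 and 1 to 10 without 1 library (all genes 1386 to 2575, the lowest without Tet1KO A, and 1420 and 1402 without DKO A and C). In N1300T against DKO they numbered 1, and 2 with library size alone, 8 with no filter, 3 with DESeq2, 0 with only the libraries compared, 2 with counts halved, 0 with either N1300T set alone, 2 with chromosome medians removed (chosen after seeing the data) and 0 to 4 without 1 library. All genes called there numbered 597, and 1481 with no filter, 1032 with DESeq2, 366 and 379 with N1300T 49 or 81 alone and 107 to 1053 without 1 library, the lowest without DKO C. Between N1300T 49 and 81, calls of members numbered 0 and, with no filter, 3 (P4ha1, Egln3 and Egln1), and all genes 58, and 244 with no filter, 108 with DESeq2 and 39 to 80 without 1 library. The cause of these shifts was not tested. Where leaving out a library leaves 2 in its group, the spread is shared with the other groups.

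With the letter as a replicate block, member calls in N1300T against Tet1KO numbered 14 (31.1%), beside 3323 of all genes (20.8%), and 17, beside 3821 (24.3%), with the block fitted without the DKO libraries. Between N1300T 49 and 81 they numbered 0, beside 105 (0.656%), and 2, beside 202 (1.28%). Where the letters do not pair the libraries, the block gave 13 member calls (28.9%) in DKO against Tet1KO, beside 3281 of all genes (20.5%), and 6 (13.3%) in N1300T against DKO, beside 1497 (9.35%). All 14 calls were kept with the block and it changed no other call of a member in the paired comparisons than those named.

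Genotype and set of cells cannot be told apart in DKO and Tet1KO, with 1 set of 3 libraries each. Differences of about 0.2 on the log2 scale rest on 3 libraries in DKO and in Tet1KO. P3h2, at under 1 CPM, was not tested with the 1 CPM filter or with halved counts.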
